A study of Mus musculus with 6 samples.

Results

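The arrays carried 1881 mouse miRNAs, and 707 of them have a number of 6300 or higher in their name. Of these 707, 83 (11.7%) were flagged as detected by the scanner software on at least 1 of the 6 arrays, and these 83 miRNAs are described here. They were chosen by that flag and by the number alone, ignoring letters and arm, so that their detection was the rule and is not a result. By the same flag 265 of the other 1174 miRNAs (22.6%) were detected, 47 of them numbered 1800 up to 6300 and 218 numbered below 1800 or belonging to let-7. RNA came from endothelial cells (ECs) of the bone marrow of wild-type C57BL/6 mice aged 1 month. The ECs had been sorted by FACS into type H ECs (CD31hiEmcnhi) and type L ECs (CD31loEmcnlo). Type H ECs line the vessels of growing bone near osteoprogenitors, and type L ECs line the sinusoids of the bone marrow. Each cell type had 3 arrays, named as biological replicates, and whether a replicate was 1 mouse or several is not given in the sources used here. The mice are male in the sample labels and female in the methods. The labels also describe culture of the sorted cells on fibronectin, which the methods for the arrays leave out.

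MiRNAs are cut from hairpin precursors whose 5′ and 3′ arms give the 5p and 3p products, and 1 of these is usually kept in the silencing complex. The seed, bases 2 to 8 from the 5′ end, pairs with target mRNAs. Numbers were given in the order in which sequences were registered, so a high number marks a late entry, and many late entries were first seen in deep sequencing at few reads. Some of them are mirtrons, hairpins formed by spliced introns, whose 3p product ends at the AG of the splice site. On the array a miRNA is read by short probes complementary to its 3′ end. A C in the probe therefore stands for a G in the miRNA.

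RefSeq (GRCm38.p6) held the mature sequence of 71 of the 83 miRNAs. The other 12 were miR-6360, miR-6378, miR-6923-3p, miR-6980-5p, miR-7040-5p, miR-7042-5p, miR-7224-3p, miR-7235-5p, miR-7241-3p, miR-7666-3p, miR-7666-5p and miR-7682-3p. The longest probe of each of the 71 paired with the last bases of its mature sequence. The paired part began between base 3 and base 14, and for 37 of the 71 it began after base 8, so that those probes read no base of the seed. The first set shown holds the brightest miRNA and some of those whose signal was lower in type H ECs, with the seed in capitals, 5′ to 3′.
miR-6366: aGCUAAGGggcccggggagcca
miR-6368: cUGGGAAGcaguggaggggag
miR-8110: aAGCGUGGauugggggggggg
miR-6995-5p: cUGGGAGUagaagggggaaacca
miR-6931-5p: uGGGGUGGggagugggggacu
miR-6769b-5p: cCUGGUGGguggggaagagc
miR-7036a-5p: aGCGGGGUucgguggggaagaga
miR-6370: gCAGGAACagcaaaggggaag
miR-6404: gUGGGAAGugacaagggguag
miR-6348: uCAGCCUUuauaaggugugugu
Runs of G after the seed occur in all but the last of these 10, which were picked and do not stand for all miRNAs with lower signal. A probe with CCCC, for GGGG in the miRNA, was found for 16 of 44 detected on all arrays. It was found for 3 of 13 detected in type L ECs only. MiR-6368 and miR-6404 share the seed UGGGAAG. The second set holds miRNAs whose signal was higher in type H ECs or that were detected there only, again with the seed in capitals.
miR-7022-3p: aCAAGCCUgaccucugccccca
miR-7080-3p: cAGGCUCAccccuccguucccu
miR-6943-3p: cUGCUUCCauaccccuacccag
miR-7085-3p: uAGCUGGCcucuccccaccuuc
miR-7055-3p: uUGCUACUuugauaccccaccag
miR-7241-5p: aCUUGCAUgaguuaauacccacc
These 6 were picked as well. After the seed they carry runs of C in place of runs of G, CCCC or longer except in miR-7241-5p, which has CCC only. The other shared seed among the 83 was GAGGGAG, of miR-7047-5p and miR-6965-5p.

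In GRCm38.p6 miR-6366 lies at chr16:18165093-18165114 on the minus strand, outside the span of any protein-coding gene in the annotation. MiR-6368 (chr13:28710796-28710816, minus strand), miR-8110 (chr8:89024791-89024811, plus strand), miR-6370 (chr6:19555438-19555458, plus strand), miR-6404 (chr7:143933171-143933191, plus strand) and miR-6348 (chr1:168490740-168490761, plus strand) are likewise outside. MiR-6931-5p (chr11:102999896-102999916, minus strand) lies within Dcakd, and miR-6769b-5p (chr8:71631083-71631102, minus strand) within Unc13a, which encodes a synaptic vesicle priming protein. MiR-7036a-5p (chr5:137296661-137296683, minus strand) lies within Srrt, whose protein links the nuclear cap-binding complex to miRNA processing. MiR-6943-3p (chr13:55453150-55453171, plus strand) lies within Grk6, a kinase of G-protein-coupled receptors. Of the 71 miRNAs with a sequence, 56 (78.9%) lay inside the span of a protein-coding gene. The same held for 105 of 209 other detected miRNAs (50.2%) and for 447 of 546 undetected miRNAs numbered 6300 and above (81.9%). Strands were not compared here or below, so a miRNA within a gene's span may lie on the opposite strand.

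The arrays had 1 colour and gave each miRNA 30 spots, and signals here are sums over a miRNA's probes in the scanner's intensity units. A signal depends on the probe as well as on the RNA, so signals of different miRNAs are not compared as amounts. A type H array detected 52 to 55 of the 83 miRNAs, of 263 to 281 miRNAs it detected in all. A type L array detected 65 to 71, of 295 to 309. A first slide held the type H arrays and a second the type L arrays, and cell type and slide cannot be told apart in any comparison given here. Each of the 10 control features detected on every array had a higher log2 signal with type H ECs, by 0.21 to 1.47. The endothelial miR-126a, both arms, and all 6 haematopoietic miRNAs looked for were detected on 0 arrays. Of 8 stromal miRNAs 7 were detected on all 6 arrays, and their summed signal was 999.9 to 1270 on the type H and 869 to 993 on the type L arrays. Their part in the results was not tested. With 3 arrays per cell type, p-values measure the spread between these arrays, and their number limits the precision. Where limma was fitted without normalization, it gave each tested miRNA of the 83 the same standard error, 0.14. Those p-values therefore do not measure the spread of 1 miRNA between its arrays. Each array measured a population of cells, so fewer cells with a miRNA and less of it per cell cannot be told apart.

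MiR-6366 gave the strongest signal of all miRNAs on every array. It was read by 2 probes, the longer of which is shown with its run of C in capitals.
miR-6366 probe: tggctCCCCggg
Its signal was 43032, 39535 and 36359 on the type H arrays and 46397, 47081 and 46832 on the type L arrays. Every type H value lay below every type L value. The next strongest signal, of miR-3963 on all arrays, was 6839 to 8360. MiR-6366 therefore held the first rank throughout, and quantile normalization, which the authors used, gives the first rank the same value on each array (15.40 on the log2 scale), so that no difference can remain. The difference was therefore taken after dividing every array by the 75th percentile of its signals over the 231 miRNAs that all arrays detected. Its log2 signal then was 15.22 ± 0.10 (SD, n = 3) for type H ECs and 15.56 ± 0.072 (SD, n = 3) for type L ECs, so that the log2 difference was -0.34 (standard error 0.069), with a signal 1.27-fold higher in type L ECs. The exact two-sided permutation test over the 6 arrays had p = 0.1, and no smaller p can be had from 3 arrays per cell type. In limma the adjusted p was 0.0023 with this scaling. Without normalization the log2 difference was -0.24 with an adjusted p of 0.11 in limma, no longer past the threshold of 0.05. That p-value rests on the shared standard error of 0.14. The SDs of miR-6366 itself without normalization were 0.12 in type H and 0.011 in type L ECs (n = 3 each). Its 15 spots per probe varied by 1.06 to 2.43% (coefficient of variation) on any array. No spot was saturated, and the brightest reached 19.1% of the saturation level.

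A large part of the whole signal fell to this miRNA. On the type H arrays miR-6366 held 53.8, 56.1 and 55.4% of the signal summed over all 1881 miRNAs, and on the type L arrays 60.1, 59.5 and 58.7%. With the other 82 miRNAs the share was 56.8% ± 1.17 (SD, n = 3) in type H and 62.0% ± 0.77 (SD, n = 3) in type L ECs. Those 82 alone held 1.73, 1.71 and 1.68% on the type H arrays. On the type L arrays they held 2.65, 2.53 and 2.52%. Set against the signal left without miR-6366, they held 3.80% ± 0.081 (SD, n = 3) in type H and 6.34% ± 0.28 (SD, n = 3) in type L ECs. No type H array overlapped a type L array in any of these shares, which were described and not tested. A share of signal is not a share of molecules.

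**Figure D1:**
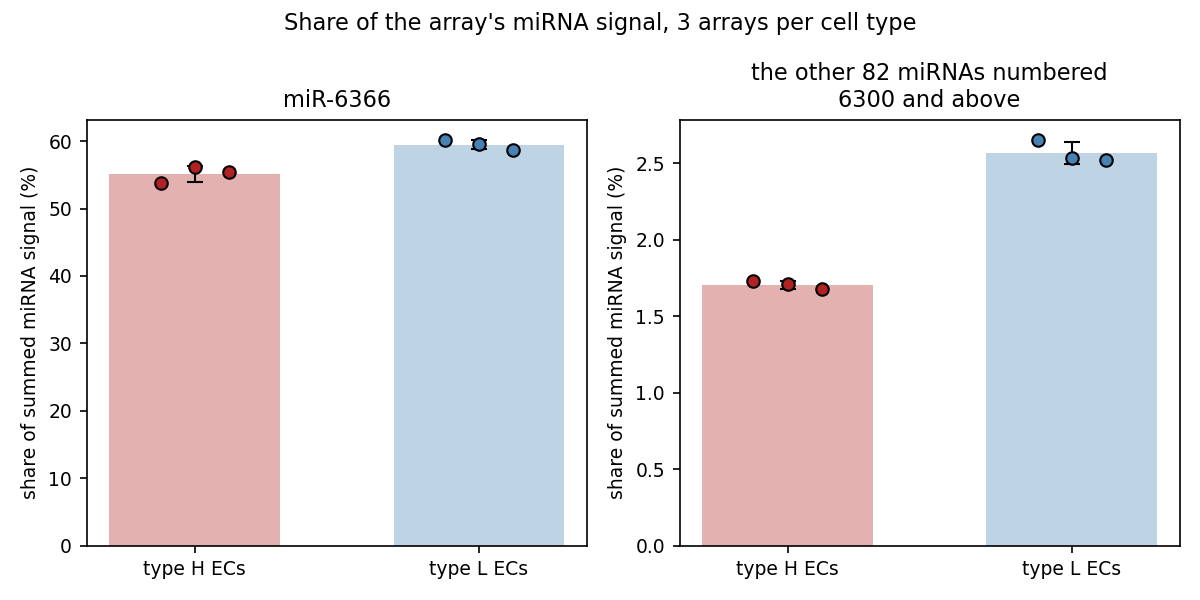
Share of the signal summed over all miRNAs, in percent, held by miR-6366 (left) and by the other 82 detected miRNAs numbered 6300 and above (right), with their own axes, both from 0. Bars are means, error bars SD and points the 3 arrays of each cell type, which do not overlap: 53.8 to 56.1% against 58.7 to 60.1% on the left, and 1.68 to 1.73% against 2.52 to 2.65% on the right.

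Of the 83 miRNAs, 44 were detected on all 6 arrays. The type L arrays alone, all of them, detected 13, the type H arrays alone, all of them, detected 7, and 19 were detected on other sets of arrays. Detection on every array of a cell type was asked for before a test, which 67 passed. A miRNA seen in 1 cell type only had to differ, so counts are given for the 44 alone. Under quantile normalization 27 of the 44 were lower and 8 higher in type H ECs at an adjusted p under 0.05 in limma, and 9 were not called, among them miR-6366 by construction. Over all 67 tested, 57 were called, beside 86.8% of the 311 tested, which counts those seen in 1 cell type. Of all 231 miRNAs detected on all arrays, 35.1% were called lower and 48.5% higher. The median log2 difference was -0.41 over the 44 and 0.11 over the 231. The 32 miRNAs numbered 1800 up to 6300 had a median of -0.32, with 17 called lower and 10 higher. For the 155 miRNAs of lower number or let-7 it was 0.30, with 37 called lower and 94 higher.

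The split depended on the scaling. With the 75th percentile, 37 of the 44 were called lower, 2 higher and 5 not, where 53.7% of the 231 were called lower and 32.5% higher. Of the 32 miRNAs numbered 1800 up to 6300, 24 (75%) were called lower and 2 higher. The medians were then -0.78 over the 44, -0.53 over the 32 and -0.22 over the 231. Without normalization 32 of the 44 were called lower and 3 higher, beside 38.5% and 30.7% of the 231. Of the 32 numbered 1800 up to 6300, 19 were called lower and 2 higher. Those calls rest on the standard error that limma shared between miRNAs there. The median of the 44 lay below that of the 231 by 0.51 to 0.57 on the log2 scale under these 3 scalings. Under quantile normalization and the 75th percentile alike, 27 of the 44 were called lower and 2 higher. Directions differed between those 2 scalings for 6 miRNAs, miR-8117, miR-6937-5p, miR-7686-5p, miR-7050-5p, miR-6360 and miR-6973b-5p, and miR-6360 and miR-6973b-5p were called in opposite directions. Before any normalization the arrays did not overlap between the cell types for 37 of the 44, with type L higher in 34 and type H higher in 3. Of the 231, 73.6% did not overlap, 40.7% with type L higher and 32.9% with type H higher.

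**Figure D2:**
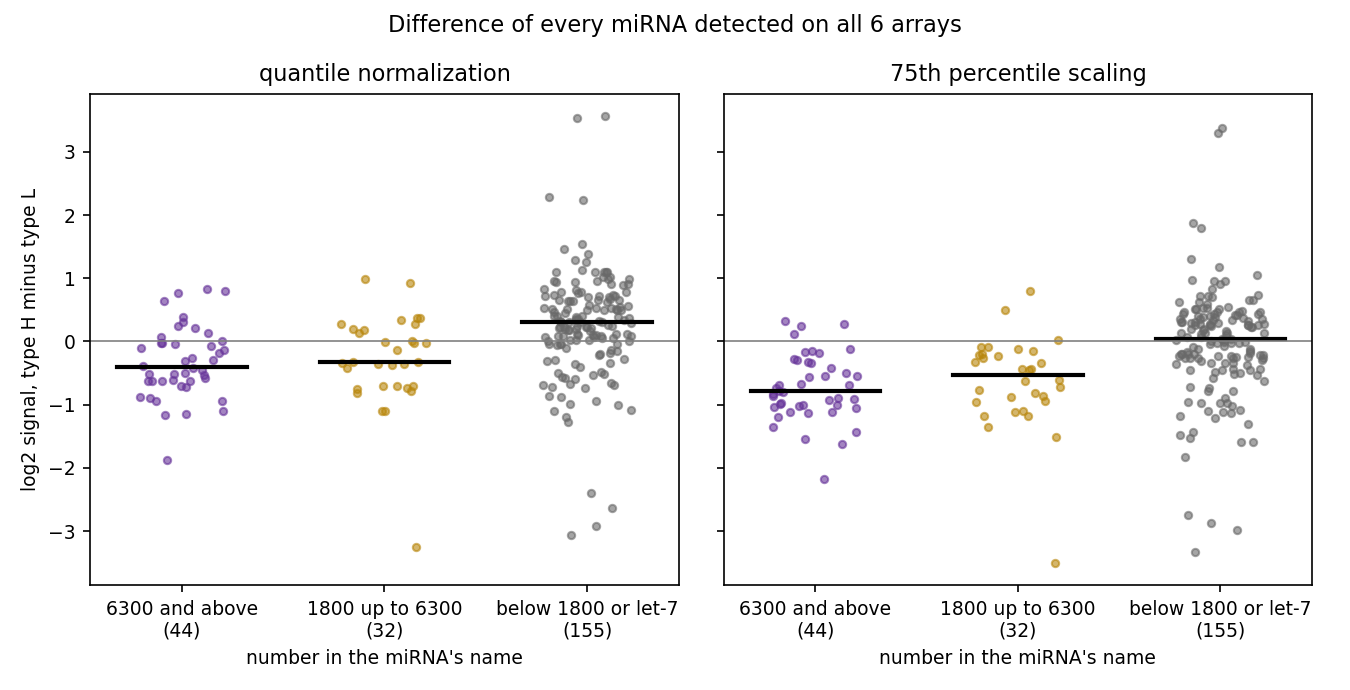
Difference in log2 signal, type H minus type L, for each of the 231 miRNAs detected on all 6 arrays (points), by the number in the name, after quantile normalization (left) and after scaling on the 75th percentile (right). Black bars are medians, at -0.41 and -0.78 for the 44 miRNAs numbered 6300 and above. They lie at -0.32 and -0.53 for the 32 numbered 1800 up to 6300 and at 0.30 and 0.042 for the 155 numbered below 1800 or let-7.

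The median SD between replicate arrays over the 44 miRNAs was 0.067 on the log2 scale in either cell type after quantile normalization. Without normalization it was 0.18 in type H and 0.055 in type L ECs, and type H array 1 was the brightest of its 3 for 43 of the 44 miRNAs and for 184 of 187 other miRNAs. For 39 of the 44 both probes, the shorter and the longer, read above the floor of 1 on every array of at least 1 cell type. With the 75th percentile, the probes differed between the cell types in the same direction for all 39 of these, and for 154 of 169 other miRNAs detected on all arrays that met the same condition. The other 5 were not compared, as 1 of their probes did not. Of these, miR-6402 had a log2 difference of 0.35 for the shorter and -0.50 for the longer probe. In miR-6378, miR-6912-5p and miR-7002-5p the shorter probe lay below the floor on every array. Its value of -0.10 there came from the floor and the scaling alone and is no second reading. MiR-6973b-5p, whose shorter probe lay near the floor, had -0.43 for the shorter and -0.24 for the longer probe.

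After miR-6366, the 5 miRNAs with the strongest signal were miR-6368, miR-8110, miR-6995-5p, miR-7047-5p and miR-6898-5p. The signal of miR-6368 was 269, 238 and 216 on the type H arrays and 473, 465 and 452 on the type L arrays. For miR-8110, whose longest probe is 10 C and an A, it was 234, 199 and 189 in type H and 330, 300.2 and 302 in type L ECs. Both were lower on every type H array than on any type L array. The log2 difference of miR-6368 was -0.90 (standard error 0.064, adjusted p = 4.8e-05 in limma) with quantile normalization and -1.05 with the 75th percentile. That of miR-8110 was -0.63 (standard error 0.11, adjusted p = 0.0023 in limma) and -0.69. MiR-6995-5p, whose locus lies within Sh3pxd2a, gave 84.3, 72.7 and 64.7 on the type H arrays and 132, 128 and 132 on the type L arrays. MiR-6898-5p, within Kansl3, gave 62.2, 56.1 and 47.8 against 96.0, 99.96 and 108. Their log2 differences were -0.94 and -0.88, with adjusted p-values of 1.3e-05 and 1.9e-05 in limma. MiR-7047-5p was unlike the other 4. Its signals of 69.2, 64.7 and 62.1 in type H and 68.6, 67.7 and 66.0 in type L ECs overlapped. Its log2 difference of -0.13 (standard error 0.081) had an adjusted p of 0.19 in limma.

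The 5 largest falls among miRNAs detected on all arrays without overlap were those of miR-6931-5p, miR-6378, miR-6769b-5p, miR-7036a-5p and miR-6370. MiR-6931-5p had signals of 14.3, 11.7 and 10.9 on the type H arrays and 53.6, 52.0 and 49.6 on the type L arrays. All type H arrays lay below all type L arrays, and its log2 signal was 3.78 ± 0.037 (SD, n = 3) against 5.65 ± 0.11 (SD, n = 3). The log2 difference was -1.87 (standard error 0.061, adjusted p = 4.6e-06 in limma) with quantile normalization and -2.18 with the 75th percentile. MiR-6769b-5p gave 29.6, 23.8 and 23.7 in type H and 63.5, 60.3 and 59.9 in type L ECs. Its difference was -1.14 (standard error 0.10, adjusted p = 0.00013 in limma). MiR-7036a-5p read 7.49, 6.45 and 5.46 in type H and 18.3, 16.9 and 17.1 in type L ECs. MiR-6370 read 7.10, 5.50 and 5.91 against 15.0, 16.1 and 15.1. Their log2 differences were -1.09 and -0.95, and -1.55 and -1.43 with the 75th percentile, all past the threshold. MiR-6378 was the dimmest of the 5, with 2.94, 2.14 and 2.11 in type H and 6.76, 6.48 and 7.09 in type L ECs. The log2 difference of miR-6378 was -1.17 (standard error 0.077, adjusted p = 3.5e-05 in limma). It rests on the longer probe alone, since the shorter lay below the floor on every array.

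Only 3 of the 44 were past the threshold and higher in type H ECs with quantile normalization and without overlap before it. MiR-7224-3p had signals of 7.16, 6.83 and 5.63 on the type H arrays and 4.75, 5.25 and 5.02 on the type L arrays. MiR-7022-3p, within Fbxo6, which encodes a ubiquitin ligase subunit, had 10.8, 9.87 and 8.27 against 7.32, 6.57 and 7.62. MiR-7666-5p had 6.43, 6.69 and 5.76 against 5.04, 4.56 and 5.21. The lowest type H array lay close above the highest type L array in each case. With quantile normalization the log2 differences were 0.82, 0.80 and 0.77 in that order (standard errors 0.072, 0.064 and 0.083), with adjusted p-values of 0.00011, 7.5e-05 and 0.00027 in limma. With the 75th percentile they were 0.28, 0.32 and 0.25, and that of miR-7666-5p was no longer past the threshold (adjusted p = 0.067 in limma). All 5 falls stayed past it.

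**Figure D3:**
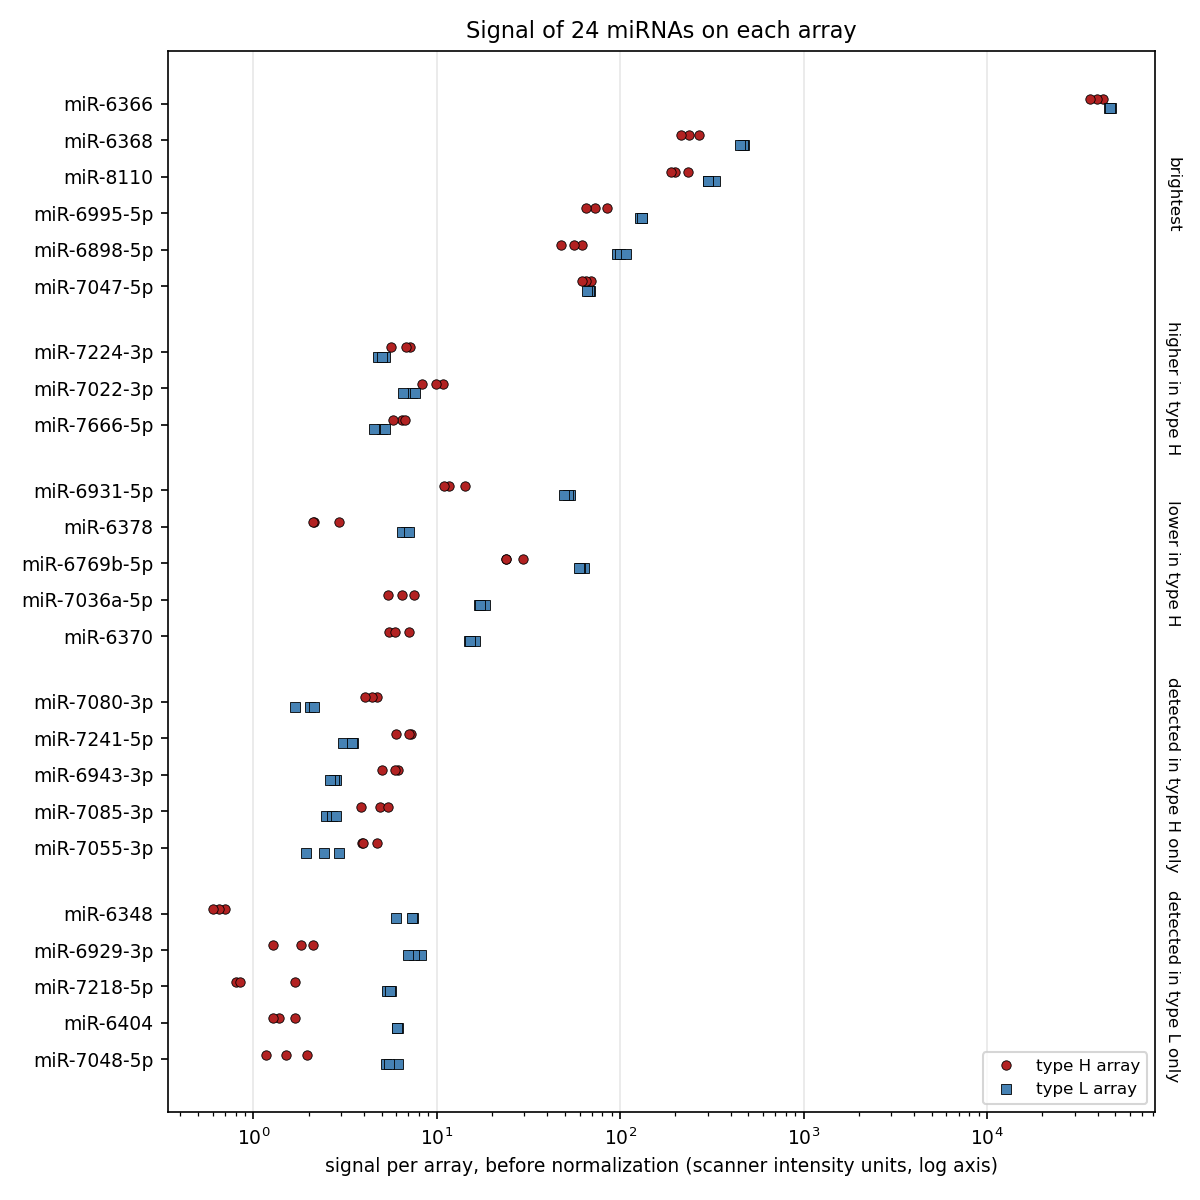
Signal of 24 miRNAs on each array before normalization, in scanner intensity units on a log axis, with circles for the 3 type H and squares for the 3 type L arrays. The groups on the right are the 6 strongest signals, the 3 rises and 5 falls in type H ECs among miRNAs detected on all arrays, and up to 5 miRNAs detected in 1 cell type only, and only miR-7047-5p, at 62.1 to 69.2, shows overlapping arrays.

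The 7 miRNAs that all type H arrays and none of the type L arrays detected were 6 3p products and 1 5p product. For miR-7080-3p, within Cpne7, the signals were 4.74, 4.44 and 4.06 on the type H arrays and 2.05, 1.70 and 2.14 on the type L arrays. MiR-7241-5p, within C2cd4b, had 7.27, 7.07 and 6.02 against 3.51, 3.08 and 3.44. MiR-6943-3p had 6.14, 5.94 and 5.02 against 2.81, 2.75 and 2.63. None of the type L values carried a detection flag, so that each would give way to the lowest signal of any detected miRNA on that array where that was higher, which it was not for any of the 7. The fold also depended on the scaling, and the bound given is the lowest of the folds with quantile normalization, with the 75th percentile and without normalization. Signals in type H ECs were at least 2.11-fold, 1.89-fold and 1.94-fold higher for these 3, where the quantile-normalized folds were 2.78, 2.68 and 2.65. MiR-7085-3p, within Slc37a4, the glucose-6-phosphate transporter gene, had 4.94, 5.42 and 3.89 in type H and 2.49, 2.67 and 2.84 in type L ECs. MiR-7055-3p, within Slc17a7, a vesicular glutamate transporter gene, had 4.71, 3.90 and 3.96 against 2.94, 1.95 and 2.42. They were at least 1.65-fold and 1.62-fold higher in type H ECs. Over all 7 the bounds ran from 1.47-fold to 2.11-fold. No p-value is given, since detection in 1 cell type alone brought these miRNAs into the fit.

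The 13 miRNAs that all type L arrays and none of the type H arrays detected comprised 7 5p products, 2 3p products and 4 without an arm in the name. MiR-6348 showed the widest gap, with 0.70, 0.65 and 0.60 on the type H arrays and 7.45, 7.36 and 6.03 on the type L arrays. By the same rule it was at least 4.56-fold higher in type L ECs, and its type H signals lay below the lowest signal of any detected miRNA on each array. MiR-6929-3p, within Ptges3l, had 2.11, 1.82 and 1.28 in type H and 8.24, 7.49 and 7.002 in type L ECs. MiR-7218-5p had 1.70, 0.81 and 0.84 against 5.39, 5.66 and 5.58. MiR-6404, which shares its seed with miR-6368, had 1.68, 1.37 and 1.28 against 6.09, 6.17 and 6.08. These 3 were at least 3.68-fold, 3.63-fold and 3.44-fold higher in type L ECs. For miR-7048-5p, within Dedd2, a death effector domain gene, the values were 1.97, 1.51 and 1.18 against 6.13, 5.26 and 5.49, at least 3.13-fold higher in type L ECs. Across the 13 the bounds ran from 1.31-fold to 4.56-fold, again with no p-value. Of the pair with the seed GAGGGAG, miR-7047-5p was not called and miR-6965-5p rose by 0.64 with quantile normalization (adjusted p = 5.7e-05 in limma) and by 0.12 with the 75th percentile, where it was not called.

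Of the 19 miRNAs detected on some arrays, 10 were detected on 2 type L arrays alone, 4 on 1 type L array alone and 2 on 1 type H array alone. A further 2, miR-8095 and miR-7016-5p, were detected on every type L array and 1 type H array, and 1, miR-7687-3p, on every type H array and 1 type L array. These last 3 entered the fit through the cell type where every array detected them, so their differences are given without a p-value, and the other 16 were not fitted. MiR-7016-5p had signals of 2.003, 1.82 and 1.18 in type H and 5.82, 5.33 and 5.33 in type L ECs, a log2 difference of -1.46. MiR-7687-3p had 4.99, 4.53 and 3.86 against 4.08, 2.59 and 2.79, a difference of 0.90 with quantile normalization and of 0.42 with the 75th percentile. The arrays of miR-7687-3p overlapped and those of miR-7016-5p did not. For miR-8095, whose arrays did not overlap either, the log2 difference was -0.029 with quantile normalization, -0.56 with the 75th percentile and -0.46 without normalization.

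Both arms of 6 hairpins were among the 83. For miR-7241 they went opposite ways, with a mean signal of 6.78 in type H and 3.34 in type L ECs for the 5p and of 6.02 and 9.03 for the 3p product, whose log2 difference was -0.18 (adjusted p = 0.014 in limma) with quantile normalization and -0.69 with the 75th percentile. For miR-7666 the 5p product had 6.29 and 4.94 and the 3p product 16.4 and 28.3, with log2 differences of 0.77 and -0.50, or of 0.25 and -0.89 with the 75th percentile. The 5p product of miR-7047 had 65.3 and 67.4 and its 3p product 4.81 and 9.73, and only the 3p product was called, at -0.62 (adjusted p = 7.5e-05 in limma) and at -1.13 with the 75th percentile. Both products of miR-6984 were lower in type H ECs, at 6.82 against 12.6 for the 5p and 2.14 against 3.61 for the 3p product. MiR-7082-5p had 18.3 and 34.4, and miR-7082-3p, detected on 1 type L array, had 1.00 and 3.75. MiR-6934-3p was detected in type H ECs only, at 4.79 against 3.07, and miR-6934-5p on 1 type L array, at 1.68 against 2.24. The differences between the arms themselves were not tested.

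The arms and the probes of the 83 were described without a test, since miRNAs are not replicates and detection chose them. Of all miRNAs numbered 6300 and above, 45 of 295 5p products (15.3%), 20 of 293 3p products (6.83%) and 18 of 119 without an arm (15.1%) were detected. In the longest probe the median content of C was 47.1% and of G 14.3%. It was 30% and 20% in the other detected miRNAs, and 27.0% and 25% in the 624 undetected miRNAs numbered 6300 and above. The probe held more C than G in 60 of the 83 (72.3%), in 61.1% of the other detected miRNAs and in 49.0% of the undetected ones. Among the other detected miRNAs, the 47 numbered 1800 up to 6300 were close to the 83. Their median was 46.2% C and 20% G, and 34 of them (72.3%) held more C than G. The 218 of lower number or let-7 had 28.6% C and 21.1% G, with more C than G in 58.7%. Composition of the 83 differed by arm. The 45 5p products had a median of 53.3% C and 12.5% G, and the 20 3p products 14.8% C and 49.6% G. The undetected 5p products had 40% C and the undetected 3p products 38.5% G.

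Composition also went with the cell type in which a miRNA was detected. All 7 miRNAs detected in type H ECs only, 6 of them 3p products, had more G than C in the probe. Of the 13 detected in type L ECs only, 11 had more C than G. The other detected miRNAs divided likewise, with more G than C in 10 of 12 detected in type H ECs only and more C than G in 25 of 29 detected in type L ECs only. Among the 44 detected on all arrays, the 36 with more C than G had a median log2 difference of -0.47, with 25 called lower and 5 higher. The median of 117 other miRNAs with more C than G was 0.19, with 35 called lower and 60 higher. With the 75th percentile these medians were -0.85, with 32 called lower and 0 higher, and -0.19, with 59 called lower and 43 higher. The 117 pool miRNAs numbered 1800 up to 6300 with those of lower number or let-7. Whatever the probe's composition, those classes had medians of -0.32 and 0.30 with quantile normalization. The 6 of the 44 with more G than C had a median of 0.36, with 1 called lower and 3 higher, beside 0.31 for 59 others, with 15 called lower and 38 higher. With the 75th percentile the 6 had a median of -0.089, with 3 called lower and 2 higher, and the 59 one of -0.031. Across the 44, Pearson's r between the log2 difference and the percentage of C minus that of G was -0.37 and Spearman's rho -0.33. Across 187 other miRNAs they were -0.24 and -0.28. For probe length in place of composition, rho was 0.14 across the 44 and 0.40 across the 187. These points share arrays, slides and probe design, so they are no independent replicates.

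**Figure D4:**
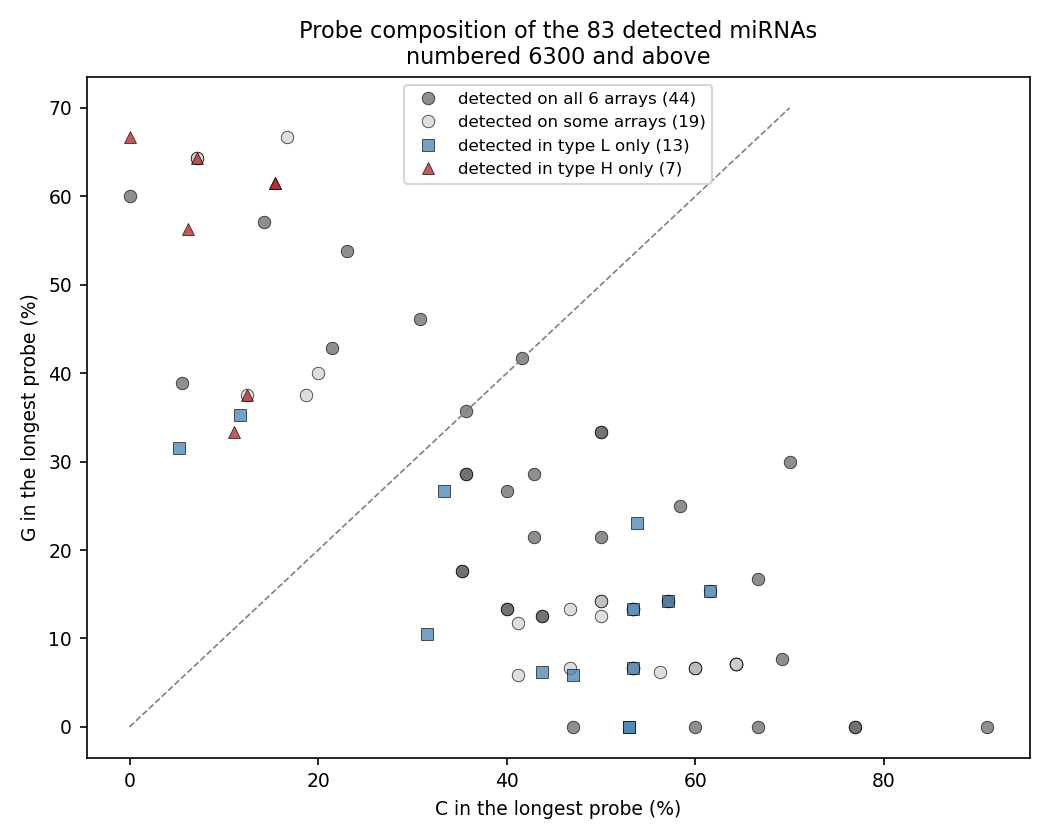
Percentage of C (horizontal axis) and G (vertical axis) in the longest probe of each of the 83 miRNAs, marked by the arrays on which they were detected, with a dashed line where the percentages are equal. All 7 miRNAs detected in type H ECs only (triangles) lie above the line and 11 of the 13 detected in type L ECs only (squares) lie below it.

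Runs of 1 base showed the same division. The letters CCCC and GGGG were looked for in the longest probe as synthesized, where CCCC stands for GGGG in the miRNA and the reverse. CCCC was found in 24 of the 83 probes (28.9%), beside 4.33% of the undetected miRNAs numbered 6300 and above, 7.92% of the other detected miRNAs and 5.79% of all miRNAs on the array. GGGG was found in 12 (14.5%), beside 7.69%, 6.79% and 5.69%. Among the 83, GGGG was found in 10 of 20 3p and 2 of 45 5p products, and CCCC in 1 of 20 and 15 of 45. Of the 7 miRNAs detected in type H ECs only, 6 held GGGG and 0 held CCCC, while of the 13 detected in type L ECs only 0 held GGGG and 3 held CCCC. All 6 with GGGG were 3p products, and arm and cell type were not separated. The 6 probes are shown with these runs in capitals.
miR-7080-3p probe: agggaacggaGGGG
miR-6943-3p probe: ctgggtaGGGGtatgg
miR-7085-3p probe: gaaggtGGGGagagg
miR-7055-3p probe: ctggtGGGGtatcaaa
miR-7115-3p probe: ctgtGGGGGcagg
miR-6934-3p probe: ctggtGGGGcagg
Of the 3 rises among miRNAs detected on all arrays, the probe of miR-7666-5p begins with such a run, and that of miR-7022-3p holds one too.
miR-7666-5p probe: GGGGaagcaccgc
miR-7022-3p probe: tGGGGGcagaggtc
miR-7224-3p probe: gtgggtggtcctct

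The probe of miR-6366 was also compared with the other probes, as the strongest signal on each array. A stretch of at least 5 bases of it occurred in the longest probe of 30 of the other 82 miRNAs (36.6%). This was so for 6.25% of the undetected miRNAs numbered 6300 and above, 10.9% of the other detected miRNAs and 8.56% of all miRNAs. The longest shared stretches, in capitals, were these.
miR-7046-5p probe: ccTGGCTCCCagc
miR-7002-5p probe: ccacgtaCTCCCCG
miR-7016-5p probe: ctactctcGCTCCCC
MiR-7046-5p was detected in type L ECs only, with signals of 3.36, 2.68 and 1.91 on the type H arrays and 6.60, 5.99 and 6.09 on the type L arrays. MiR-7002-5p had 6.65, 5.93 and 5.18 against 7.75, 8.48 and 7.99, without overlap. Its log2 difference was -0.023 with quantile normalization, which was not called (adjusted p = 0.56 in limma), but -0.55 with the 75th percentile (adjusted p = 6.2e-05 in limma). Without normalization it was -0.45 (adjusted p = 0.0018 in limma, from the shared standard error). Whether any probe also bound miR-6366 was not tested.

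Ends of the mature sequences were counted for the 3p products, since a mirtron's 3p product ends in AG. These letters ended 6 of the 15 detected 3p products with a sequence, 144 of 241 undetected ones numbered 6300 and above (59.8%) and 4 of 89 other detected 3p products (4.49%). Of the 7 miRNAs detected in type H ECs only, 4 ended in AG.

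At the edges of the rule, the lowest-numbered of the 83 was miR-6348. The detected miRNA with the highest number below 6300 was miR-5622-3p, at 16.0, 14.1 and 13.3 in type H and 21.1, 22.3 and 23.3 in type L ECs. The dimmest of the 83 was miR-7682-3p, flagged on 2 type L arrays, with signals of 0.29, -0.13 and 0.15 on the type H arrays and 3.54, 3.99 and 2.89 on the type L arrays. The undetected miRNA numbered 6300 or above with the strongest signal was miR-7117-3p, at 4.51, 4.22 and 3.85 in type H and 2.38, 2.87 and 2.65 in type L ECs. Its signal was above that of several flagged miRNAs, so the flag does not follow the summed signal alone.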

How the data were processed

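Both cell types were hybridised to 1-colour Agilent miRNA arrays, 3 each. The authors extracted spot intensities with Agilent Feature Extraction 10.7.1.1 (version from the submitters' processing notes) and deposited these intensities, background-subtracted and not normalized. A log2 table deposited beside them is quantile-normalized according to the methods. The labels describe labelled cRNA from a linear amplification kit and the methods Cy3-labelled small RNAs, and the files do not settle which was used. The header's array design number differs from that in the methods.

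The signal of a miRNA was the sum of the total signals of its distinct probes (4415 probes in all). The deposited total per miRNA holds other miRNAs' signal in some cases and was an alternative. For the comparison, quantile normalization over the 1881 miRNAs was followed by a floor of 1 and log2. The 311 miRNAs detected on all arrays of 1 cell type or of both were fitted with limma 3.58.1 (lmFit and eBayes, R 4.3.3) with Benjamini-Hochberg adjustment over the 311 and a threshold of 0.05. Scripts were tested on simulated data. The 83 miRNAs, the lists and the rule for names were chosen with earlier results of these data known. That rule named miR-6366, the 6 strongest signals, up to 5 rises and 5 falls (called, detected on all arrays, no overlap), up to 5 detected in each cell type only, shared seeds, both arms, and the edges of the rule. Other names were chosen after their values were seen. Alternatives changed the scaling, signal, background, filter, floor, test or array weights, added the replicate block, or left out an array. The same-numbered arrays of the 2 cell types are not paired by any label. Coordinates and mature sequences are those of RefSeq for GRCm38.p6, and a genome sequence was not used here.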

Additional observations from a re-analysis of the deposited data

How the results depend on the processing

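Of the 473 values that the alternatives gave for 23 of the named miRNAs, 468 kept their direction and their side of the threshold, 4 kept only the direction, and 1 (miR-7047-5p without type L replicate 3, at -0.24) passed the threshold newly. The 4 were miR-7666-5p with the 75th percentile, at 0.25, and miR-7224-3p, miR-7666-5p and miR-7048-5p with the totals as deposited, at 1.13, 0.86 and -2.80. No direction reversed among the 23. Only 13 of the 23 were detected on all arrays, and the others, miR-7048-5p among them, entered the fit through 1 cell type. The rises and falls were picked as called, so this tally largely follows from the choice. Among the 44, directions differed between quantile normalization and the 75th percentile for 6. The number of the 44 miRNAs called higher in type H ECs was 8, but 2 with the 75th percentile of miRNAs detected on all arrays, 4 with the 75th percentile over all miRNAs and 3 without normalization. It ran from 7 to 9 with any array left out, and the number called lower from 26 to 28. For miR-6366 the log2 difference was 0 with quantile normalization and 0 in the authors' log2 table, where its rank fixes it, and -0.24 both with the 75th percentile over all miRNAs and without normalization. With any array left out it ran from -0.37 to -0.27. Without a filter on detection 413 miRNAs were called in place of 270, since more were tested, and when only miRNAs detected on all arrays were tested, 35 of the 44 were called in place of 57 of 67. With normexp background correction, whose offset compresses dim signals, the median of the 44 lay 0.15 below that of the 231, in place of 0.51.

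No label pairs the arrays by replicate number. Deviations of same-numbered arrays from their means correlated at -0.0055, -0.025 and 0.12 across the 231 miRNAs. Those of differently numbered arrays correlated at -0.10 to 0.11. With 3 arrays per cell type these values cannot settle whether the arrays are paired. With the replicate number as a block, 262 of the 311 miRNAs and 55 of the 67 were called, 7 of the 44 higher and 27 lower, and the log2 difference of miR-6366 with the 75th percentile was -0.34. With the block 2 of the 67 lost their calls, miR-6973b-5p (adjusted p = 0.052 in limma) and miR-6984-3p, and no other call among the 67 changed. MiR-6984-3p was detected in type L ECs only and entered the fit through them, so its call is not a result. Depth is not defined for arrays, and signals of the dimmest miRNAs lay near the lowest signal of any detected miRNA, 0.69 to 1.92.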
